A study of Homo sapiens with 6 samples.

Results

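The data are the eIF4B cross-links on 6 tubulin mRNAs, mapped by iCLIP in 2 B-cell lines. The genes are the α-tubulin genes TUBA1A, TUBA1B and TUBA1C and the β-tubulin genes TUBB, TUBB4B and TUBB2A. They were chosen by name, as every position that the deposited tables list under one of these symbols, and they are 6 of the 13668 protein-coding genes with at least 1 count in either cell line. All 6 had counts in both cell lines. They held 7341 of 2033156 cDNA counts in DoHH-2, at 1710 of 1179243 positions, and 481 of 167197 counts in GM01953, at 195 of 78474 positions. In iCLIP, UV light links a protein to the RNA it touches, and reverse transcription stops at the link, so that each cDNA marks a nucleotide next to it. eIF4B was immunoprecipitated with an antibody to the protein.

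DoHH-2 is a line of diffuse large B-cell lymphoma (DLBCL) and GM01953 a non-cancerous control B-cell line. The labels give no treatment or genetic change for either. By the labels DoHH-2 had 4 replicates and GM01953 had 2, but the values are those of the pooled replicates, 1 per cell line. No SD and no test between the cell lines could therefore be computed, and every interval given here is a 95% interval that covers counting error only. Counts were made after the authors had removed PCR duplicates, but the iCLIP counts do not separate how much mRNA a cell held from how often eIF4B was linked to it. The total of counts is far higher in DoHH-2, as given above, while the counts per position are 1.72 in DoHH-2 and 2.13 in GM01953. Of 6 B-cell marker genes, all had counts in both cell lines, and 4 of them were at least 2-fold lower in DoHH-2 by counts per 1000000 counts of the cell line (CPM), as were 14.2% of all protein-coding genes with at least 20 counts. Among them was MS4A1, the gene of the surface protein CD20, with 13 counts in DoHH-2 and 152 in GM01953. The 6 markers together held 1807 and 637 counts, most of them in CD74, with 1023 and 359. No count lay in the 3 T-cell, 2 myeloid or 2 fibroblast markers in either cell line, and the epithelial marker EPCAM had 2 counts in DoHH-2 and none in GM01953.

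Microtubules are built from dimers of α- and β-tubulin. Newly made tubulin is passed by the chaperone prefoldin to the chaperonin TRiC, and dedicated cofactors then join the α and β chains. Cells also adjust tubulin mRNA to the pool of free dimers. When dimers are in excess, TTC5 recognises the first residues of tubulin as it leaves the ribosome and, with SCAPER and the CCR4-NOT complex, brings about decay of the mRNA being translated. eIF4B stimulates the helicase eIF4A, which unwinds structure in the 5′ UTR so that ribosomes can reach the start codon. The position of eIF4B along a tubulin mRNA is thus of interest both at the 5′ UTR and at the first codons.

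The nucleotides with the most counts are shown first, because they lie at the 5′ end of 3 of the 4 mRNAs given here and far from the start codon on TUBB, the one with the most counts. Each line gives 30 bases of the mRNA, written as DNA 5′ to 3′, with the nucleotide that had the most DoHH-2 counts of its gene in capitals. The bases are from the GRCh38 reference, the build to which the reads were mapped. In the order printed they lie at chr6:30720357-30720386 on the plus strand, chr12:49131351-49131380 on the minus strand, chr12:49269603-49269632 on the plus strand and chr12:49189051-49189080 on the minus strand. The TUBB, TUBA1B and TUBA1A windows are 5′ UTR sequence of exon 1, and the TUBA1C window is coding sequence. In TUBA1B a second nucleotide of the 5′ UTR tied with the one shown, and in TUBA1A, where no position exceeded 3 counts, the one shown is the more 5′ of a tied pair.
TUBB: agaaccttcctgccGtcgcgtttgcacctc
TUBA1B: tcgactcttagcttGtcggggacggtaacc
TUBA1C: tccttcaacaccttCttcagtgaaacgggt
TUBA1A: gcagGttctcttacatcgaccgcctaagag

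On TUBB, the capital is nucleotide 20 of the mRNA, 136 nt before the start codon, with 145 counts in DoHH-2 and 13 in GM01953. Its window of 30 bases held 781 counts, or 17.3% of the gene, in DoHH-2 and 47, or 16.4%, in GM01953. A similar share thus lay in the same short stretch in both cell lines. On TUBA1B, the capital is nucleotide 30, where DoHH-2 had 57 counts and GM01953 had 5, and its window held 22.8% and 30.7% of the gene. The TUBA1C position, 156 nt into the coding sequence, had 11 counts in DoHH-2, while GM01953 had none there.

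TUBB and TUBA1B carried most of the tubulin counts. TUBB (ENSG00000196230), the main β-tubulin of many dividing cells, had 4503 counts in DoHH-2 and 287 in GM01953. TUBA1B (ENSG00000123416), a widely expressed α-tubulin, had 1970 and 140. TUBB alone made up 61.3% of the counts of the 6 genes in DoHH-2 and 59.7% in GM01953, and it ranked 31 and 29 among all protein-coding genes by count. TUBA1B ranked 73 and 66. The remaining genes were much lower. TUBB4B (ENSG00000188229) had 415 and 14 counts, and TUBA1C (ENSG00000167553) had 376 and 18. TUBA1A (ENSG00000167552), known as the main α-tubulin of developing neurons, had 46 and 21, and TUBB2A (ENSG00000137267), a β-tubulin known from the nervous system, had 31 and 1.

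Exonic CPM was divided by mRNA length to compare genes with each other. In DoHH-2 the order was TUBB with 868 CPM per kb, TUBA1B with 582, TUBB4B with 126, TUBA1C with 63.2, TUBA1A with 13.2 and TUBB2A with 8.22. In GM01953 TUBB and TUBA1B again came first, with 675 and 511. TUBA1A followed there, with 75.1, ahead of TUBB4B with 53.6, TUBA1C with 36.0 and TUBB2A with 3.70. The order of TUBB and TUBA1B depends on repeated sequence. Nucleotides whose following bases occur once in the genome number 528 in TUBA1B and 1470 in TUBB. They held 1749 and 4024 counts in DoHH-2 and 136 and 273 in GM01953. Per such nucleotide, TUBA1B was thus ahead of TUBB in both cell lines. These nucleotides include most of each 5′ UTR, and how reads with several matches were treated is not known. The TUBA1C value depends on its annotated length of 2823 nt. Of its 3′ UTR of 1373 nt, the middle and last of 3 equal parts held no count in either cell line. With 14 to 21 counts for each of TUBA1A, TUBB4B and TUBA1C, their intervals overlapped in GM01953 on the scale of CPM, from 77.8 to 192 for TUBA1A, from 45.8 to 141 for TUBB4B and from 63.8 to 170 for TUBA1C. Of all exonic and intronic counts of the 6 genes, 98.1% in DoHH-2 lay on the exons of the transcripts used here.

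**Figure D1:**
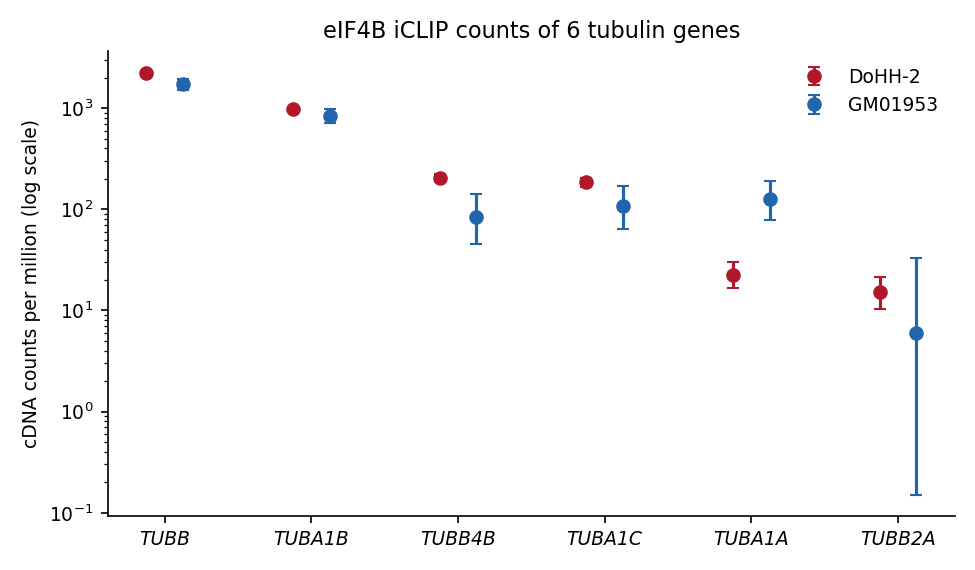
CPM of each tubulin gene (counts per 1000000 counts of the cell line), on a log scale, with exact Poisson 95% intervals (counting error only). Each point is 1 pooled value per cell line. TUBB and TUBA1B are highest in both cell lines, and TUBA1A is the gene with a higher value in GM01953 whose intervals do not overlap.

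In CPM, the 6 genes together had 3611 (interval 3529 to 3694) in DoHH-2 and 2877 (2625 to 3146) in GM01953, a ratio of 1.26 (1.14 to 1.38). This was close to the median of 1.29 over the 9416 protein-coding genes with at least 20 counts over both cell lines. When positions with a count were compared in place of counts, the ratio of the 6 genes was 0.584. In DoHH-2, 132 of the 155 nt of the TUBB 5′ UTR had a count, and by positions each nucleotide is counted once. Whether this lowered the ratios by positions was not tested. TUBB had 2215 (2151 to 2280) CPM in DoHH-2 and 1717 (1524 to 1927) in GM01953, a ratio of 1.29 (1.15 to 1.46) that was 0.527 by positions. TUBA1B had 969 (927 to 1013) and 837 (704 to 988), a ratio of 1.16 with an interval of 0.975 to 1.38 that includes equal values, and by positions its ratio was 0.440. By counts, both abundant tubulin mRNAs lay in the middle of all genes, with 50.2% of genes at a lower ratio than TUBB and 45.3% at a lower ratio than TUBA1B.

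Of the 6 tubulin genes, 2 were at least 2-fold higher in DoHH-2, TUBB4B and TUBB2A, against a background of 32.3% of the 9416 genes. TUBA1A was the 1 tubulin gene at least 2-fold lower, against a background of 14.2%. Of the 9416 genes, 885 had no count in GM01953 and were counted as higher. The 6 tubulins thus had shares of higher and lower genes near those of all genes. The TUBB4B ratio was 2.44 (1.44 to 4.50), and that of TUBA1C was 1.72 (1.07 to 2.93). By positions the ratios of TUBB4B and TUBB2A were 1.66 and 1.93, so that neither passed 2-fold. That of TUBA1C was 1.03 by positions and 5.09 at positions with an FDR below 0.05. The TUBB2A ratio of 2.55 rests on 1 count in GM01953, and its interval of 0.425 to 104 spans equal values.

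TUBA1A had the lowest ratio of DoHH-2 over GM01953, with an interval below those of the other 5 genes. It had 22.6 CPM (16.6 to 30.2) in DoHH-2 and 126 (77.8 to 192) in GM01953, and was 5.55-fold (3.15 to 9.49) higher in GM01953. Only 2.74% of the 9416 genes had a lower ratio of DoHH-2 over GM01953. Under the other ways of counting the ratio of TUBA1A was between 0.151 and 0.236. Of its 21 GM01953 counts, 4 were at nucleotides that also had a count in DoHH-2, where the gene had only 39 positions with a count. Its highest GM01953 position, nucleotide 377 in the coding sequence at chr12:49186409, had 6 counts there and none in DoHH-2. The 5′ UTR of TUBA1A lies in unique sequence, with 12 of the 21 GM01953 counts and 23 of the 45 exonic DoHH-2 counts. Whether a single replicate of GM01953 gave these 21 counts was not tested, since the replicates were pooled.

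Along the mRNA, the 5′ UTR was the main place of eIF4B cross-links on TUBB and TUBA1B. The 5′ UTR of TUBB is 155 nt long and held 2420 of 4439 exonic counts, or 54.5% (53.1 to 56.0), in DoHH-2. In GM01953 it held 218 of 284, or 76.8% (71.5 to 81.3). The 95 nt of the TUBA1B 5′ UTR held 1054 of 1926 counts, or 54.7% (52.5 to 56.9), in DoHH-2 and 102 of 139, or 73.4% (65.5 to 80.0), in GM01953. In both mRNAs the share was thus higher in GM01953, with intervals that do not overlap. Counts were spread over most of these 5′ UTRs in DoHH-2, at 132 of 155 nt in TUBB and 71 of 95 nt in TUBA1B. On TUBB the first, second and last complete stretch of 50 nt held 1053, 815 and 513 counts in DoHH-2 and 66, 81 and 70 in GM01953. Of the TUBA1B counts in this 5′ UTR, 800 of 1054 lay in the first 50 nt in DoHH-2, as did 75 of 102 in GM01953.

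**Figure D2:**
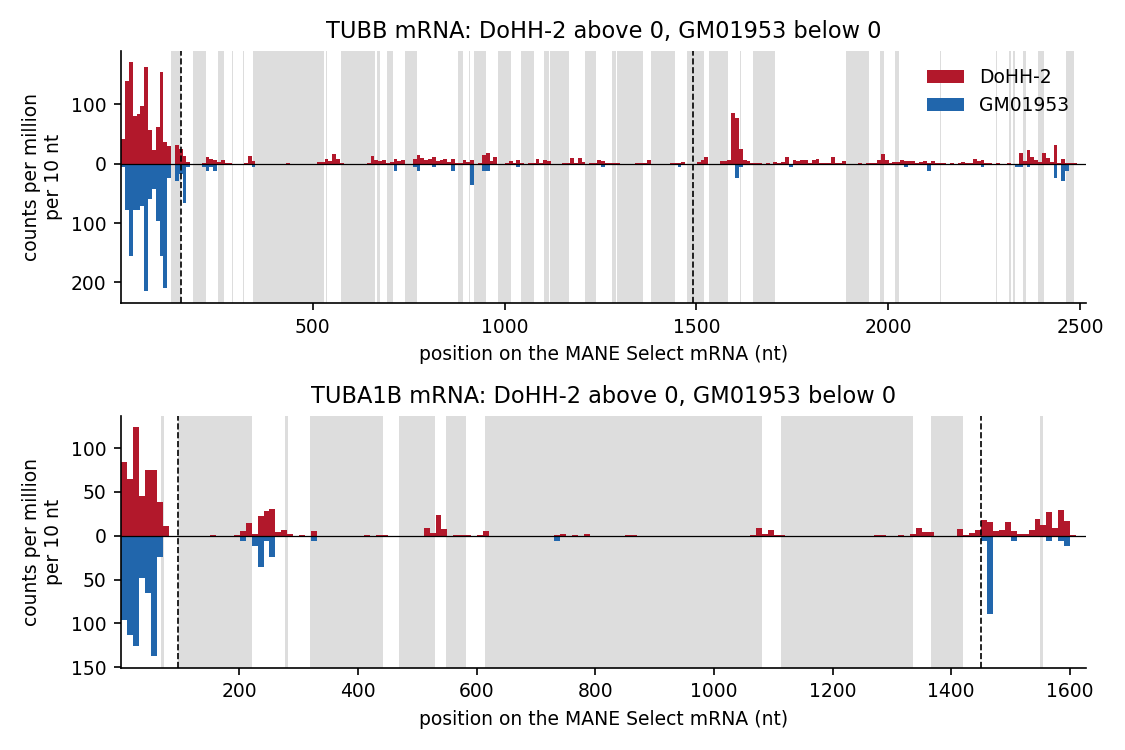
CPM in bins of 10 nt along the TUBB and TUBA1B mRNAs, with DoHH-2 above 0 and GM01953 below 0. Dashed lines mark the start and stop codons, and grey marks nucleotides whose next 31 bases also occur elsewhere in the genome. The highest bins of both cell lines are in the 5′ UTR, and the TUBB 3′ UTR has a cluster in DoHH-2.

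TUBA1C and TUBB4B had smaller shares in the 5′ UTR in DoHH-2. TUBA1C had 81 of 363 exonic DoHH-2 counts there, or 22.3% (18.3 to 26.9), and TUBB4B 80 of 399, or 20.1% (16.4 to 24.3). Both intervals lie below those of TUBB and TUBA1B. In GM01953 TUBA1C had 8 of 17 counts there, or 47.1% (26.2 to 69.0), an interval that overlaps that of TUBA1B, and TUBB4B had 2 of 14. TUBA1A was closer to TUBB and TUBA1B in DoHH-2, with 51.1%, and had 57.1% in GM01953, but on 45 and 21 exonic counts. TUBB2A had 12 of 27 exonic DoHH-2 counts in the 5′ UTR, and its 1 GM01953 count lay there too.

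To set the tubulins beside other genes, each mRNA was divided into 5 regions, namely the 5′ UTR, the start codon, the CDS, the stop codon and the 3′ UTR, and both codon regions took in 50 nt on each side. By this division the 5′ UTR region of the 6 genes held 2774 of 7199 exonic counts, or 38.5% (37.4 to 39.7), in DoHH-2 and 238 of 476 (interval 45.5% to 54.5%) in GM01953. The median over 7699 protein-coding genes in DoHH-2 was 3.49%, and over 1048 genes in GM01953 it was 4.35%. TUBB, with 45.7% in DoHH-2, lay above 98.2% of genes, TUBA1A with 40.0% above 97.0% and TUBA1B with 34.3% above 95.7%. TUBA1C, with 14.6%, lay above 80.4% of genes. TUBB4B, with 2.26%, lay above 43.6%, although its 5′ UTR of 74 nt leaves only 24 nt outside the start codon region. In GM01953 TUBB had 55.6% and TUBA1B 47.5%, above 93.7% and 90.8% of genes. The choice of transcript mattered, because the longest coding transcripts of TUBB and TUBA1A lack the exon 1 used here, which held 2465 DoHH-2 counts on TUBB. With the longest transcripts the 5′ UTR share of the 6 genes was 15.5% in DoHH-2 and 30.6% in GM01953. When positions were compared in place of counts it was 12.2% in DoHH-2 and 40.8% in GM01953.

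In DoHH-2 the start codon region held 9.80% of TUBB and 20.4% of TUBA1B counts, and in GM01953 it held 26.1% and 25.9%. These counts were mostly upstream of the start codon, as described below. With codon regions of 25 nt the start codon share of the 6 genes was 3.25% in place of 13.6% in DoHH-2 and 4.62% in place of 25.4% in GM01953. The share of TUBB counts in the CDS region was 18.5% in DoHH-2, where 11.2% of genes had a lower one, and 9.51% in GM01953, where 9.54% did. In TUBA1C and TUBB4B the CDS was instead the main region in DoHH-2, with 47.7% (42.6 to 52.8) and 54.1% (49.2 to 59.0). The stop codon region of TUBA1C held 17.4% of DoHH-2 counts, more than in 94.5% of genes. The highest position of this region, with 9 counts, lay 3 nt past the stop codon. Others, with 7 counts each, lay 46 and 48 nt past it, near the edge of the region. With codon regions of 25 nt the stop codon share of the 6 genes in DoHH-2 was 1.85% in place of 4.50%. TUBB and TUBA1B held most of these summed counts, and the share of TUBA1C alone was not computed with this setting.

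**Figure D3:**
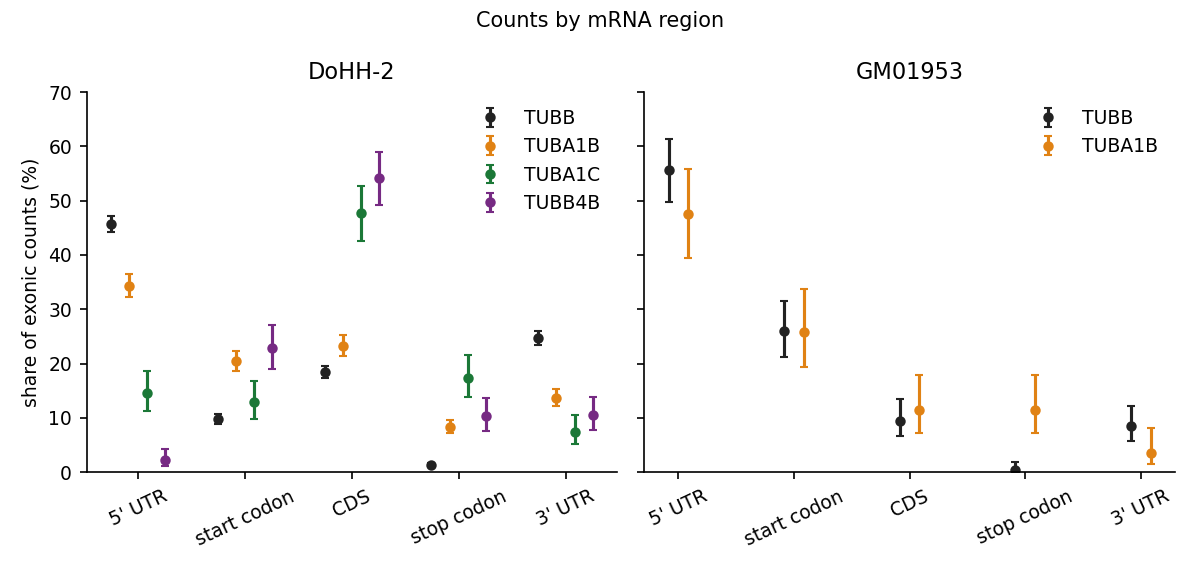
Share of exonic counts in 5 regions of the mRNA, with Wilson 95% intervals (counting error only), for the tubulin genes with at least 100 exonic counts in the cell line shown. In DoHH-2 TUBB and TUBA1B have their largest share in the 5′ UTR, while TUBA1C and TUBB4B have it in the CDS.

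Since regions differ in length, densities were compared too. In DoHH-2 the 5′ UTR region of TUBB had 19330 counts per kb, 28.9-fold the density of its CDS and 17.2-fold that of its 3′ UTR. With only the nucleotides in unique sequence, these folds were 16.3 and 14.2. The TUBA1B 5′ UTR region had 14690 counts per kb, 10.7-fold the CDS density in unique sequence. The corresponding fold was 4.14 in TUBA1C. It was 1.73 in TUBB4B, 22.5 in TUBA1A and 3.99 in TUBB2A, but on only 9, 18 and 3 counts in the 5′ UTR region. In GM01953 the folds over the CDS in unique sequence were 36.3 for TUBB and 26.4 for TUBA1B. They were 15.3 for TUBA1C and 12.5 for TUBA1A, but on 4 and 10 counts in the 5′ UTR region. TUBB4B went the other way there, with 0 counts in the 5′ UTR region and 12 in the CDS.

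The 3 parts of the mRNA did not have the same ratio between the cell lines. In the whole 5′ UTRs of the 6 genes, DoHH-2 had 1805 CPM and GM01953 had 2051, which is a ratio of 0.880 (0.788 to 0.986). In the coding sequences they were 905 and 514, a ratio of 1.76 (1.42 to 2.21). In the 3′ UTRs they were 831 and 281, a ratio of 2.96 (2.21 to 4.04). The lower ratio of the 5′ UTRs and the higher ratios downstream thus gave the intermediate ratio of the whole genes. On TUBB the same parts had ratios of 0.913 (0.794 to 1.05), 1.73 (1.27 to 2.41) and 3.90 (2.61 to 6.11). On TUBA1B they were 0.850 (0.693 to 1.05), 2.52 (1.54 to 4.44) and 1.496 (0.965 to 2.45). The median share of the 3′ UTR over all genes compared also differed, at 32.1% in DoHH-2 and 14.9% in GM01953, although over different numbers of genes. The part that depth played in this difference was not tested.

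TUBB was the tubulin with the most counts in its 3′ UTR, which spans 1025 nt. It held 1138 counts, or 25.6% (24.4 to 26.9) of the exonic counts, in DoHH-2 and 24, or 8.45% (5.74 to 12.3), in GM01953. Of 3 equal parts of this 3′ UTR, the first held 596 DoHH-2 counts, the middle 202 and the last 340. In GM01953 the order was different, with 6, 3 and 15 counts. The highest position of the TUBB 3′ UTR in DoHH-2, chosen after the profile was seen, lies in the window chr6:30724485-30724514, whose sequence is printed because it is rich in T, the base that stands for U in the mRNA.
TUBB 3′ UTR: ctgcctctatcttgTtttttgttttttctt
The capital marks that position, nucleotide 1592 of the mRNA, with 37 counts in DoHH-2 and none in GM01953. The window of 30 bases held 329 counts, or 7.31% of the gene, in DoHH-2 and 3, or 1.05%, in GM01953. On TUBA1C, whose 3′ UTR is 1373 nt long, all 84 DoHH-2 counts of the 3′ UTR were in the first of 3 equal parts. The 176 nt of the TUBA1B 3′ UTR held 130, 136 and 116 counts in the 3 parts. In GM01953 the 21 counts there were mostly close to the stop codon, with 7 and 8 at the neighbouring nucleotides 1463 and 1464 of the mRNA.

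In the 5′ UTRs of TUBB and TUBA1B, most nucleotides with a GM01953 count also had one in DoHH-2. In TUBB the highest GM01953 position was nucleotide 117, 39 nt before the start codon, with 17 counts there and 22 in DoHH-2. It was followed by nucleotide 98, with 14 in GM01953 and 64 in DoHH-2, and by nucleotide 20, the highest in DoHH-2. The window of 30 nt from nucleotide 103 to 132, which was placed on the highest GM01953 position, so that a high GM01953 share follows in part from the choice, held 7.68% of TUBB counts in DoHH-2 and 19.9% in GM01953. Between nucleotides 46 and 75, shares were closer, with 16.03% and 19.2%. That window was in turn placed by DoHH-2 counts, on nucleotide 60, the second-highest DoHH-2 position of TUBB. In TUBA1B the highest GM01953 position was nucleotide 2 of the annotated mRNA, with 15 counts, where DoHH-2 had 54. That nucleotide held 10.7% of the GM01953 counts of the gene and 2.74% of those in DoHH-2.

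**Figure D4:**
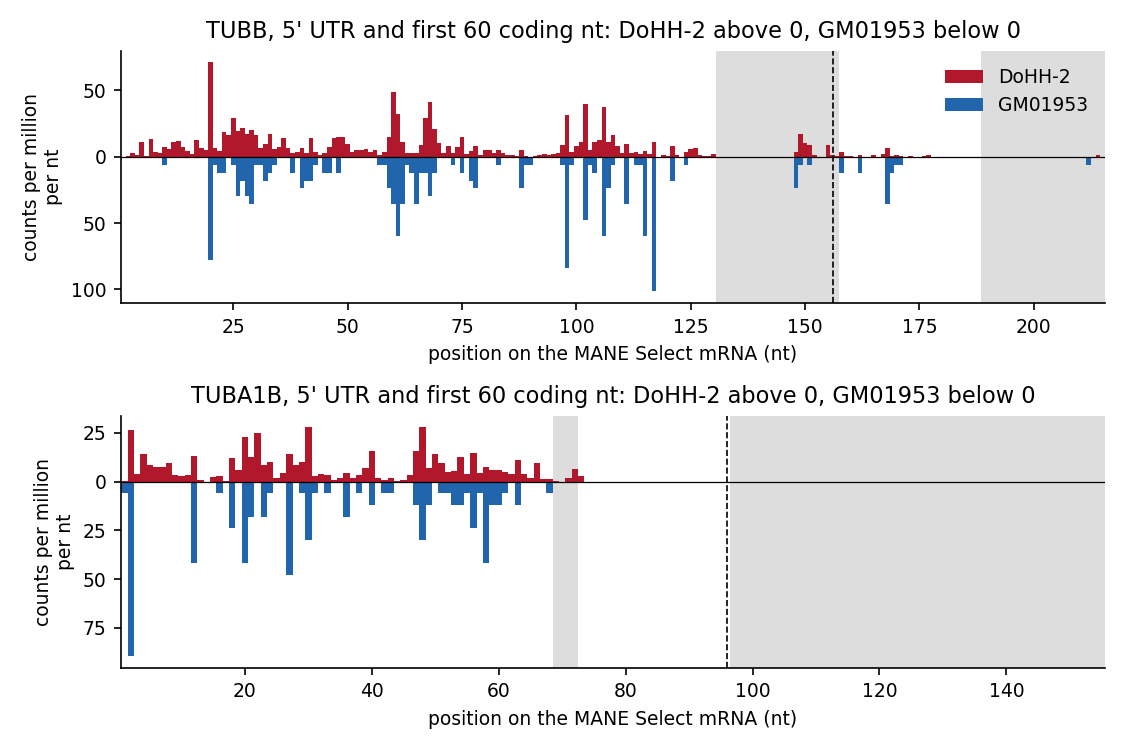
CPM at each nucleotide of the 5′ UTR and of the first 60 coding nt of TUBB and TUBA1B, with DoHH-2 above 0 and GM01953 below 0. The dashed line marks the start codon and grey marks sequence found elsewhere in the genome. Nucleotide 20 of TUBB is high in both cell lines, nucleotide 117 is highest in GM01953, and no count lies between nucleotide 74 and the start codon of TUBA1B.

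Over the 6 genes, 431 of the 481 GM01953 counts, or 89.6% (86.6 to 92.0), were at a position that also had a DoHH-2 count. TUBA1B reached 97.1% and TUBB 94.1%, while TUBA1C had 72.2% and TUBB4B 57.1%. The value is set partly by depth, because a gene with many DoHH-2 counts has few empty positions. Over 84 genes with at least 100 GM01953 and 1000 DoHH-2 counts, the median was 95.7% with quartiles of 87.3% and 99.4%. TUBB and TUBA1B thus lay within the quartiles of genes of similar depth. In DoHH-2, 896 tubulin positions had an FDR below 0.05, a measure of clustering within the gene, and held 82.9% of the tubulin counts. In GM01953 there were 124 such positions with 82.1%. TUBB had 389 and 71 of them and TUBA1B 238 and 44. TUBB2A had none in either cell line.

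The first codons, which encode the residues that TTC5 reads, were examined next. The 30 first coding bases of each gene are printed with the first 4 codons in capitals, to show how far the paralogs share them.
TUBA1A, TUBA1B and TUBA1C: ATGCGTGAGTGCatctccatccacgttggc
TUBB: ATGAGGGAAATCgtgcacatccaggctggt
TUBB4B: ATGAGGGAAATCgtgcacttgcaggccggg
TUBB2A: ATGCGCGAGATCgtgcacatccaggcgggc
The 3 α-tubulin genes are identical over all 30 bases. Of these 30 nucleotides 1 was classed as unique, the first, because its next 31 bases cross an exon junction and have no copy in the genome. TUBB and TUBB4B share the first 4 codons, and 28 and 30 of their nucleotides are unique. On TUBB, 45 DoHH-2 and 14 GM01953 counts lay in the 30 bases, against 390 and 60 in the 50 nt upstream of the start codon. The next 30 coding nt held 2 and 1, but they include the end of exon 1 and, from nucleotide 189 of the mRNA, sequence that is repeated in the genome. On TUBB4B the 30 bases had 19 counts in DoHH-2, after 71 in the 50 nt upstream. On TUBA1C they had 14 in DoHH-2, and on TUBA1A and TUBA1B none in either cell line, although TUBA1B had 393 and 36 counts in the 50 nt upstream. Since the 30 bases are the same in these 3 genes, they do not show to which of them the 14 counts belong.

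Exon ends limit what can be read from the last stretch before the start codon and, in the β-tubulin genes, from the first part of the coding sequence. In the α-tubulin genes exon 1 ends just after the ATG, and in the β-tubulin genes it ends 57 nt into the coding sequence. On TUBA1B exon 1 has 98 nt, and its last nucleotide with a count was 73 in DoHH-2 and 68 in GM01953. Summed over the 6 genes, 5 DoHH-2 counts and 1 GM01953 count lay in the last 20 nt of exons 1 to 3. The first 20 nt of exons 2 to 4 had 153 and 8. Reads that start in the last nucleotides of an exon must cross the junction. The part of read mapping in the gap before the α-tubulin start codons was not tested.

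Paralogs and processed pseudogenes share long stretches of tubulin coding sequence, which bears on every count there. Of the 11816 nt of the 6 mRNAs, 51.6% are followed by 31 bases that occur once in the genome, but these held 89.8% (89.0 to 90.4) of the exonic counts in DoHH-2 and 95.4% (93.1 to 96.9) in GM01953. All nucleotides of the 5′ UTR region were unique, against 35.6% of the CDS region. The least unique mRNA was TUBA1B, with 32.5% of its nucleotides. TUBA1B shares 748 of its words of 31 bases with TUBA1C, 768 with TUBA1A and 574 with the pseudogene TUBAP2, and TUBB shares 715 with TUBBP1. Counts in the tables under tubulin pseudogenes were few, 124 in 14 pseudogenes in DoHH-2 and 15 in 3 in GM01953. TUBAP2 had the most, with 53 and 8. The 5′ UTR share in DoHH-2 was higher with unique sequence alone, at 42.9% in place of 38.5%.

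At the protein level the α-tubulins are nearly the same, with 98.4% to 99.6% of residues identical between pairs of the 3, and the β-tubulins have 95.5% to 97.7%. Their coding sequences are 96.1% to 97.2% and 84.6% to 87.3% identical by nucleotide. When codons were aligned, TUBB had DoHH-2 counts in 213 codons and TUBB4B in 127 of the 444 aligned, and 76 had counts in both. The correlation of counts across these codons was 0.135, and for TUBA1B and TUBA1C, which share 23 codons with counts, it was 0.324. Codons share the library and much of the sequence, so these correlations describe the libraries only.

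Cross-linked nucleotides were rich in U and poor in A. Over the 6 mRNAs, 43.0% of DoHH-2 and 42.7% of GM01953 counts were at a U, which makes up 23.9% of the sequence. An A had 6.33% and 4.20% of counts, against 22.8% of the sequence. The TUBB 5′ UTR had the same excess of U, with U at 44.01% and 48.6% of counts and 25.8% of its sequence. The TUBA1B 5′ UTR differed, since G had 42.9% of counts in DoHH-2 and 46.1% in GM01953, at 24.2% of the sequence, while U had 24.4% and 20.6%, at 27.4% of the sequence. Relative to their sequence, U was thus the most linked base in the TUBB 5′ UTR and G in that of TUBA1B, in both cell lines. Whether these excesses are particular to eIF4B was not tested, since the values include no control library.

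Among other genes, those most like TUBB in the shares of the 5 regions were MBNL1, a regulator of splicing, ATF5, a transcription factor of the stress response, and FTL, the ferritin light chain. Likeness was measured as the summed difference of the shares over both cell lines among 230 genes with at least 200 exonic counts in DoHH-2 and 50 in GM01953. The differences were 61.9, 65.9 and 70.1 percentage points. ATF5 had 46.5% of its exonic counts in the 5′ UTR region in DoHH-2 and 42.3% in GM01953, MBNL1 46.4% and 62.7%, and FTL 37.9% and 58.0%.

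Of the 16 other tubulin genes, 9 had a count in DoHH-2 and 8 in GM01953, and 5 had at least 20 over both. TUBB2B, a neuronal β-tubulin near-identical to TUBB2A, with which that gene shares 980 words of 31 bases, had 196 and 4 counts and was 4.03-fold (1.55 to 14.9) higher in DoHH-2, the 1 of these 5 genes past 2-fold in either direction, beside 32.3% of all genes higher and 14.2% lower. TUBA4A had 111 and 15 counts, TUBB3 74 and 5, and the γ-tubulin genes TUBG1 and TUBG2, which nucleate microtubules, 37 and 2 and 22 and 1. TUBD1 had 18 and 0, TUBB4A 12 and 0, TUBE1 11 and 2, and TUBA8 6 and 1. TUBB6 was the reverse, with no count in DoHH-2 and 9 counts in GM01953. The interval of its ratio of DoHH-2 over GM01953 ended at 0.0417. TUBA3C, TUBA3D, TUBA3E, TUBAL3, TUBB1 and TUBB8 had none in either cell line, which allows up to 3 counts.

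Of 16 genes for tubulin folding, autoregulation and dimer binding, 6 were at least 2-fold higher in DoHH-2, beside 32.3% of all genes, and none was lower, beside 14.2%, with a median ratio of 1.55 beside 1.29 over all genes. The gene with the most counts was STMN1, stathmin, which binds free dimers, with 2453 and 128 counts and a ratio of 1.58 (1.32 to 1.90). TBCD, the cofactor that binds β-tubulin, had 414 and 12 counts and a ratio of 2.84 (1.61 to 5.54). VBP1, a subunit of prefoldin, had 311 and 11 and a ratio of 2.33 (1.28 to 4.71). SCAPER, an adaptor of tubulin mRNA decay, had 184 counts in DoHH-2 and none in GM01953, and the interval of its ratio started at 4.06. The cofactors TBCB, with 126 and 4 counts, and TBCC, with 53 and 0, and the prefoldin subunit PFDN1, with 36 and 1, had ratios whose intervals started at 0.987, 1.14 and 0.499. TBCC was counted as past 2-fold because GM01953 had no count. TTC5 itself had 44 and 2 counts.

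Genes for tubulin modification and microtubule binding had a lower median ratio, 0.827 over 17 of 18 genes with at least 20 counts. AGBL5, an enzyme that removes glutamate side chains from tubulin, was the 1 gene at least 2-fold lower in DoHH-2, beside 14.2% of all genes, with 228 and 87 counts and a ratio of 0.216 (0.168 to 0.279). HDAC6, a tubulin deacetylase, had 67 and 1 counts, ATAT1, the tubulin acetyltransferase, 44 and 0, and SPAST, a microtubule-severing enzyme, 54 and 2, and these 3 were counted as at least 2-fold higher in DoHH-2. This compares with 32.3% of all genes, and the intervals of the 3 ratios, which start at 0.956, 0.940 and 0.586, all include equal values. MAP4, which stabilises microtubules, had 543 and 57, CKAP5, a microtubule polymerase, 353 and 21, and KIF2A, a depolymerising kinesin, 244 and 27. VASH1 had no count.

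Actin, the other abundant cytoskeletal protein, differed from tubulin in where the counts lay. ACTB had 6467 and 1074 counts, 2.02-fold higher in CPM in GM01953, and ACTG1 had 2003 and 261. Together they had 3.55% (3.17 to 3.97) of exonic counts in the 5′ UTR region in DoHH-2 and 6.00% (4.84 to 7.42) in GM01953, below the sum of the 6 tubulin genes, with intervals that do not overlap. This did not hold for TUBB4B and TUBB2A, whose 2.26% (1.19 to 4.23) and 11.1% (3.85 to 28.1) in DoHH-2 overlapped the actin interval. The 8 genes of TRiC, which folds both proteins, had 9.29% (8.44 to 10.2) and 18.5% (13.5 to 24.7). Of the 8, 3 were at least 2-fold higher in DoHH-2, beside 32.3% of all genes, namely CCT2, CCT6A and CCT7, with ratios of 7.67, 2.67 and 3.22. No TRiC gene was 2-fold lower, beside 14.2% of all genes, and their median ratio was 1.81. CCT3, the subunit with the most counts, had 915 and 43.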

How the data were processed

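The authors mapped the iCLIP reads to GRCh38 with HISAT2 after removing PCR duplicates, pooled all replicates of a cell line and used iCount to count the cDNAs at each cross-link position. The deposited counts are raw whole numbers. The deposited FDR values (q-values) come from iCount permutations within the gene. Versions of these tools and the treatment of reads with several matches are not given in the sources used here. File positions count from 0, as tested at gene ends, and coordinates are printed from 1.

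Counts were summed over unique positions under each gene name, scaled by the total of the cell line and placed on MANE Select transcripts of GENCODE release 44. DoHH-2 had 2033156 counts and GM01953 167197. Intervals were exact Poisson for counts, Wilson for shares and exact conditional (Clopper-Pearson) for ratios, computed with scipy 1.17.1. Unique sequence means 31 bases downstream found once in 3099750718 bases of the reference. Bases that cross an exon junction were classed as unique when the reference held no copy, also where paralogs share the spliced sequence. Named genes are the 6 tubulins, the other tubulin genes, the 3 genes with most DoHH-2 counts and any past 2-fold in each list, and the 3 genes nearest to TUBB. The members and lists were chosen with earlier results of these data known. Steps were tested on simulated data. Alternatives were FDR-filtered positions, other scaling, positions in place of counts, unique sequence, no highest position, other transcripts and other codon windows. A sequence window of another tubulin gene is not reported here.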

Additional observations from a re-analysis of the deposited data

How the results depend on the processing

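No paired analysis was possible because the deposited columns are pooled over replicates and carry no replicate number, and for the same reason no replicate could be left out. The 6 genes had 3611 CPM in DoHH-2 and 2877 in GM01953. Restricting to an FDR below 0.05 gave 6854 and 4248, scaling to coding genes other than replication-dependent histone genes 5094 and 4161, counting positions 1450 and 2485, and leaving out the highest position of each gene 3497 and 2608. Unique sequence gave 3247 in DoHH-2. The ratio of 1.26 became 1.61 with the FDR and reversed to 0.584 by positions, as that of TUBB did to 0.527, while TUBA1A stayed between 0.151 and 0.236. TUBB2A has no ratio with the FDR or without its highest position. The cause of the reversal was not tested.

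The 5′ UTR share in DoHH-2 was 15.5% on the longest coding transcripts, which lack exon 1 of TUBB and TUBA1A as used here, 48.8% with codon regions of 25 nt, 45.8% with the FDR, 12.2% by positions and 42.9% in unique sequence. The first 4 settings gave 30.6%, 70.4%, 58.4% and 40.8% in GM01953. The CDS share in DoHH-2 was 34.1% on the longest transcripts, 16.6% with the FDR, 45.1% by positions and 19.5% in unique sequence, and in GM01953 26.7%, 7.11% and 22.5% for the first 3 of these. Shares by positions are bounded by the length of a region. Shared GM01953 counts were 94.2% within 1 nt, 96.9% within 3 nt and 84.4% at DoHH-2 positions with an FDR below 0.05. Unique counts were 81.6% with words of 25 and 97.2% with 40 bases in DoHH-2 and 85.7% and 97.1% in GM01953. Genes at least 2-fold lower numbered 794 with at least 50 counts and 2104 with at least 5. Depth limits TUBA1A, TUBA1C, TUBB4B and TUBB2A in GM01953, with at most 21 counts each.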
